A study of Mus musculus with 8 samples.

Results

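Mfge8 and 7 other genes by which tissue cells and phagocytes bind and take up dying cells were followed in mouse dorsal skin. They are the bridging proteins Mfge8, Gas6 and Pros1, the receptor tyrosine kinases Axl, Mertk and Tyro3, and the endocytic receptors Lrp1 and Stab1, 8 of 18193 genes with a probe set of their own. The group was chosen by the diet difference of Mfge8 in these same arrays, where its control and collagen values did not overlap, and the other 7 were added by name for their role in the same process. Its diet difference is therefore given as a description, without a test. All probe sets that the platform annotation gives exactly 1 of these symbols were taken, 12 of 45037, and the brightest one on average over the 8 arrays stands for its gene.

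The mice were female Hos:HR-1, a hairless strain that loses its fur after the first hair cycle. They were 9 weeks old at the start and 10 weeks old at sampling, and both groups ate AIN-93G, a purified rodent diet, for 1 week. The collagen group received it with 2.0 g of collagen hydrolysate per 100 g of diet, a mixture of short peptides made here from fish scales. The control group received it without this addition. The series has 4 control and 4 collagen arrays of powdered whole dorsal skin, which the labels call biological replicates. The labels describe 8 mice per diet, housed 4 to a cage, with the choice of mice for the arrays not given in the sources used here. Values are log2 signals as the authors deposited them.

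Cells that die by apoptosis expose phosphatidylserine on their outer surface. Mfge8 (also called lactadherin) binds that lipid with one end and the αv integrins of a phagocyte with the other. Gas6 and protein S (Pros1) bind the same lipid through a vitamin K dependent domain. Both activate kinases of the TAM family, which is Tyro3, Axl and Mertk, with Gas6 a ligand of each. Lrp1 takes up cells marked by calreticulin and complement, and Stab1 (stabilin-1), a scavenger receptor of macrophages and sinusoidal endothelium, binds phosphatidylserine directly. In whole skin these genes are read from keratinocytes, fibroblasts, vessels and immune cells together, so fewer cells of a type and less RNA per cell cannot be told apart.

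The tissue label fitted its markers. All 7 keratinocyte markers (Krt5, Krt14, Krt1, Krt10, Lor, Ivl and Trp63) lay at or above the 90.2nd percentile of probe set brightness, and all 6 fibroblast markers at or above the 93.1st. Of 5 liver genes, none reached the median brightness over all probe sets, 8.193. The main probe sets of all 8 members did, but no detection calls were used here, so signal over background is unknown. The deposited values hardly moved between arrays: between the lowest and the highest array, the median probe set moved by 7.36e-06, a narrowness with its origin not given in the sources used here. No difference is therefore turned into a fold change. The medians of the arrays themselves ranged over 3.31e-04, which is large beside many of the differences below. Most of that range came from collagen 1, at 8.19289, while the medians of the other arrays lay between 8.19311 and 8.19322. The median diet difference over all probe sets was 5.30e-08.

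Mfge8 was lower in the collagen-fed mice on the deposited scale. It was read by a single probe set with a mean of 11.19. In units of 0.0001 log2, control arrays 1 to 4 deviated from that mean by 1.55, 0.945, 0.979 and 0.552. Collagen arrays 1 to 4 deviated by -0.718, -0.934, -1.48 and -0.892. Every control array lay above every collagen array. The difference was -2.01e-04 ± 2.52e-05 (moderated SE from limma, n = 4 arrays per diet), or -5.42 within-diet SD. Over the main probe sets of all genes, 0.671% had both diets apart with the collagen arrays lower, and 2.02% had them apart in either direction. Mfge8 was chosen for this separation, and nothing is read from it here.

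The separation of Mfge8 was lost after median centring and after quantile normalization, and both scalings have limits here. Its difference was 0.608 of the range of the array medians, a range that came mostly from collagen 1. After each array's median was subtracted, the difference was -1.46e-04, or -1.16 within-diet SD, and the diets overlapped because collagen 1, the array with the lowest median, moved to the top. Over the arrays the median probe set moved by only 7.36e-06, far less than the median of collagen 1 stood off. Centring thus shifted collagen 1 by an amount that most probe sets did not show. The centred overlap therefore does not settle the Mfge8 difference. In rank among the 45037 probe sets of its array, Mfge8 held place 41914 in control 1, 2 and 3 and in collagen 3. It held place 41915 in control 4, collagen 2 and collagen 4, and place 41916 in collagen 1. Its rank thus moved by 2 places over all 8 arrays, and the mean rank was 41914.25 with the control diet and 41915.00 with collagen, against the direction of the deposited values. The number of other probe sets with a mean within the Mfge8 diet difference of its own mean was 0. Its shift alone could therefore hardly move its rank, and the places depend on neighbouring probe sets that cross it. The collagen gene Col1a1, named after its values were seen, was such a neighbour, with a mean of 11.18506 against 11.18551 for Mfge8. It lay above Mfge8 in control 1, 2 and 3 and in collagen 3, the arrays where Mfge8 held place 41914, and below it in the others. Quantile normalization, which gives each probe set the mean value of its rank over the arrays, gave 1.10 within-diet SD, higher with collagen. This value rests on the same rank steps, and neither shows by itself that Mfge8 was higher with collagen.

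**Figure D1:**
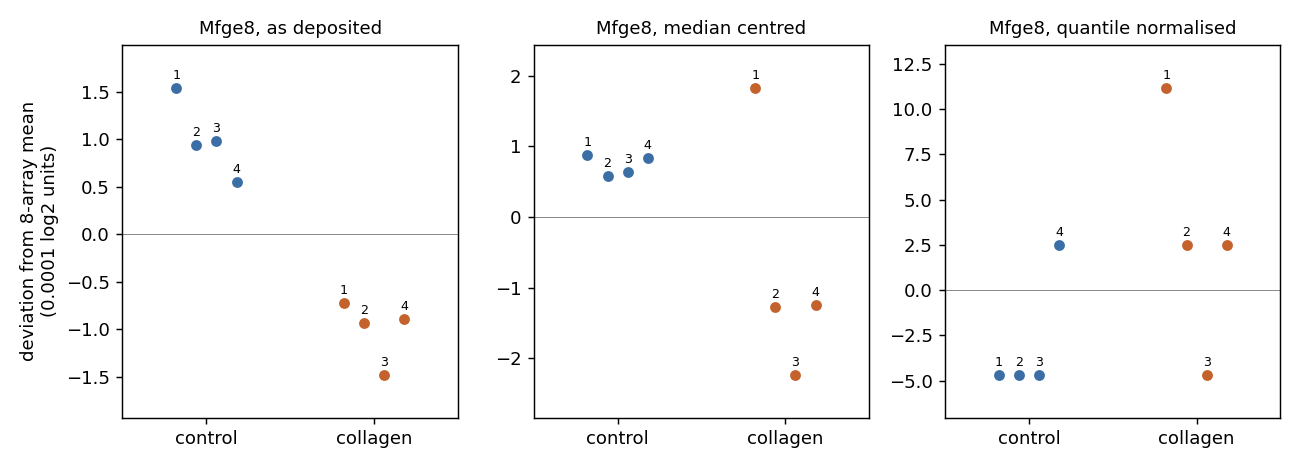
Mfge8 in each array as the deviation from its mean over 8 arrays, in 0.0001 log2 units, for the values as deposited (left), after median centring (middle) and after quantile normalization (right), with points numbered by replicate. The diets are apart on the left, collagen 1 lies above all control arrays in the middle, and on the right the points share 3 levels, with collagen 1 the highest.

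The other bridging proteins did not separate the diets. Gas6, the growth factor-like ligand of all TAM kinases, had a main probe set at 11.88. Its deviations, in units of 0.0001 log2, were -7.98, 12.5, 8.31 and -2.76 in control 1 to 4 and -0.661, -11.7, -5.00 and 7.29 in collagen 1 to 4. Each diet held arrays on both sides of the mean, with control 2 highest and collagen 2 lowest. The difference was -5.05e-04 ± 5.96e-04, larger on the deposited scale than that of Mfge8 but only -0.575 within-diet SD. By limma's moderated test across all 45037 probe sets it had an unadjusted p of 0.427. Pros1, an anticoagulant plasma protein and TAM ligand, lay at 11.07 with a range of only 4.81e-05. Its difference was 3.52e-06 ± 1.18e-05, or 0.202 within-diet SD (unadjusted p = 0.776 by limma's moderated test), and it was the 1 member with a higher mean in the collagen group.

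The 3 TAM kinases likewise overlapped between the diets. Axl, a TAM receptor of macrophages, dendritic cells and fibroblasts, lay at 10.53. It deviated by -0.343, 0.354, 0.741 and 0.0808 in control 1 to 4 and by -0.718, -0.425, -0.361 and 0.671 in collagen 1 to 4, in units of 0.0001 log2. Collagen 4 stood among the control arrays and control 1 within the collagen range. The difference was -4.16e-05 ± 3.64e-05, or -0.776 within-diet SD (unadjusted p = 0.293 by limma's moderated test). Mertk, the main TAM receptor of resident macrophages for dead cell uptake, lay at 9.43 and differed by -1.63e-05 ± 6.36e-05, or -0.174 within-diet SD (unadjusted p = 0.806). Its highest and lowest arrays were both collagen arrays, with 1.14 in collagen 4 and -1.35 in collagen 2 in units of 0.0001 log2. Tyro3, the TAM kinase best known from the nervous system, lay at 8.48 and differed by -3.12e-06 ± 1.22e-05, or -0.173 within-diet SD (unadjusted p = 0.807).

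Lrp1 and Stab1 were lower on average in the collagen group, within the spread between arrays. Lrp1 lay at 10.69. Its deviations, in units of 0.0001 log2, were 0.0204, 2.21, 1.78 and -0.930 in control 1 to 4 and -2.51, -1.12, -1.12 and 1.67 in collagen 1 to 4. Control 4 lay closest to the lower collagen arrays and collagen 4 closest to the higher control arrays. The difference was -1.54e-04 ± 1.10e-04, or -0.949 within-diet SD (unadjusted p = 0.208 by limma's moderated test). Stab1, at 10.12, deviated by -5.12, 7.65, 9.82 and -1.37 in control 1 to 4 and by -6.35, -8.09, -2.61 and 6.08 in collagen 1 to 4. The same arrays, control 2, control 3 and collagen 4, were the 3 highest for Stab1 and for Lrp1. The Stab1 difference was -5.49e-04 ± 4.57e-04, or -0.814 within-diet SD (unadjusted p = 0.272).

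**Figure D2:**
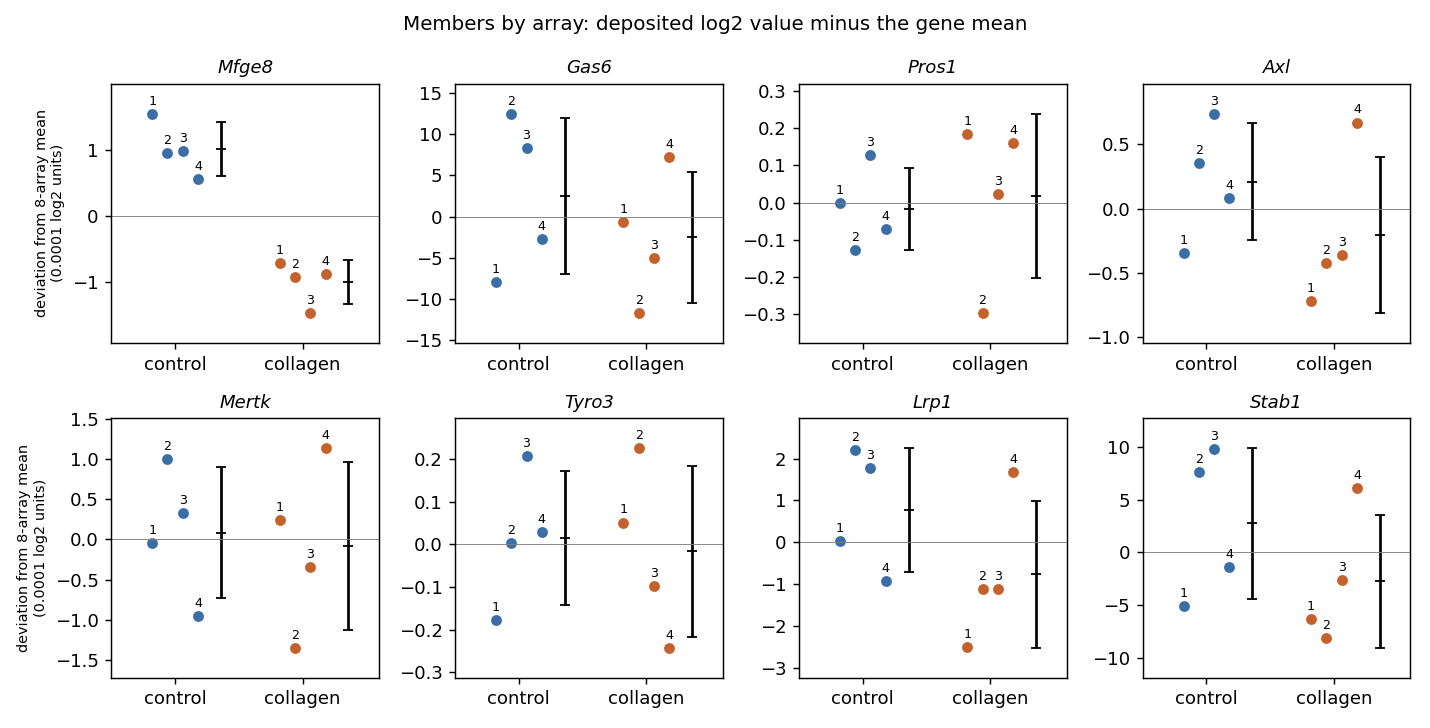
Deposited log2 value of each member's main probe set minus its mean over 8 arrays, in 0.0001 log2 units, with control arrays in blue and collagen arrays in orange, numbered by replicate (bars: mean ± SD, n = 4; vertical axes differ). Mfge8 separates the diets, while for Gas6, Axl, Lrp1 and Stab1 collagen 4 lies above the group's other arrays.

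By limma's moderated test no probe set of the array passed an adjusted p of 0.05 (0 of 45037, 0%), and 1601 (3.55%) had an unadjusted p under 0.05. None of the other 7 members was among the latter. The mean of the collagen group was lower in 7 of 8 members, against 47.1% of all genes, and the median of the members was -0.675 within-diet SD, against 0.0517 over all genes. This count was 4 of 8 after median centring, after quantile normalization and with ranks in place of values. Median centring shifted collagen 1 by more than most probe sets moved. The ranks of Pros1, Axl and Lrp1 moved by only 1 place over the arrays. Since the members were chosen with results known, and share the same arrays, this direction is no independent evidence.

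The correlations of Gas6, Axl, Mertk, Lrp1 and Stab1 over arrays of the same diet were all positive on the deposited scale. Those of Mfge8 with other members were lower, but no pair passed the adjusted test. These 5 genes were picked out after the correlations were seen. Each gene's diet mean was removed, and the correlation over the 8 arrays was taken for all 28 pairs of members. The 10 pairs among those 5 genes had Pearson's r between 0.560 and 0.926, all positive. Axl and Stab1 had r = 0.926 and Spearman's rho = 0.881 (exact permutation of arrays within diets, two-sided p = 0.00521 and 0.0104). Gas6 and Stab1 had r = 0.910 and rho = 0.905 (exact permutation p = 0.0208 and 0.0139). Without the 2 arrays farthest from the median of the first gene, r was 0.817 for Axl with Stab1 and 0.885 for Gas6 with Stab1. Axl with Mertk, the weakest of the 10 pairs, went from 0.560 to 0.133 without the 2 farthest arrays and to 0.173 with 1 array left out, so its value rests on few arrays. Over the 10 pairs r ran from 0.173 to 0.860 after quantile normalization and from 0.377 to 0.927 after median centring.

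No pair passed the adjustment over 28 pairs (smallest adjusted p = 0.146 for Pearson's r and 0.194 for Spearman's rho, exact permutation tests), and 5 pairs had an unadjusted p under 0.05. The smallest p that arrangements within diets can give is 0.00174. With the diet means left in, which allows 40320 orders of the arrays, 5 of the 21 pairs without Mfge8 passed for Pearson's r and 1 for Spearman's rho. These were Axl with Stab1 (r = 0.938, adjusted p = 0.0255, exact permutation), Gas6 with Stab1 (0.916, 0.0388), Axl with Lrp1 (0.892, 0.0413), Lrp1 with Stab1 (0.891, 0.0413) and Gas6 with Mertk (0.840, 0.0458). All 5 pairs were also the 5 with an unadjusted p under 0.05 once the diet means were removed. Without the 2 farthest arrays their r lay at 0.884, 0.879, 0.840, 0.783 and 0.670. With the diet means left in, r also holds the diet difference, and these genes all had a lower mean with collagen. The orders then treat arrays of both diets as exchangeable. The 5 passing pairs are therefore no evidence of covariation within diets.

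The correlations with Stab1 were read against those of other genes. Over 8165 genes that were at least as bright and as variable as the median probe set, the median r with Stab1 was 0.122. A value at or above that of Axl was held by 1% of them, of Gas6 by 1.57%, of Lrp1 by 3.31% and of Mertk by 11.6%. Many other genes of the skin therefore followed Stab1 as closely as these members did, and all points share the same 8 arrays and their scaling. After quantile normalization r was 0.860 for Gas6 with Stab1, 0.772 for Axl with Stab1 and 0.258 for Lrp1 with Stab1. The ranks of Axl and Lrp1 moved by only 1 place over the arrays, so their quantile values rest on single steps. After median centring the same pairs had 0.923, 0.377 and 0.867.

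Mfge8 and Tyro3 had lower correlations on the deposited scale, and these depended on the scaling. The 7 correlations of Mfge8 with other members lay between -0.223 (Stab1) and 0.293 (Mertk), with exact permutation adjusted p of at least 0.839. After median centring, which subtracts 1 number from every gene of an array, they ran from -0.122 (Stab1) to 0.954 (Pros1), with 0.822 for Axl and 0.801 for Mertk. That number ranged over 3.31e-04, against deposited ranges of 4.81e-05 for Pros1, 1.46e-04 for Axl and 2.49e-04 for Mertk. Subtracting the same number from 2 genes that vary less than it raises their r by itself. No conclusion about Mfge8 is drawn from the centred values. Over the 4 differences between control and collagen arrays of the same replicate number, on the deposited scale, Mfge8 had r = 0.83 with Axl, 0.795 with Lrp1 and 0.560 with Stab1. Their exact permutation adjusted p were 0.359, 0.365 and 0.713. The replicate numbers were not taken to pair the arrays, so nothing is concluded from these 4 points. Whether Mfge8 varies apart from the other members is not settled by these arrays. Tyro3 correlated negatively with all 7 other members, from -0.485 (Mertk) to -0.107 (Stab1), with no unadjusted p under 0.05 by the exact permutation test. For some members the pooled value joined opposite signs. Within the 4 control arrays Tyro3 had r = 0.953 with Axl and 0.821 with Stab1, and within the 4 collagen arrays -0.749 and -0.933, a difference that was not tested. After median centring its r was 0.867 with Axl, 0.969 with Pros1 and 0.937 with Mfge8. The same limit holds, since Tyro3 ranged over only 4.69e-05. Pros1 followed Mertk most closely (r = 0.625, rho = 0.524, exact permutation p = 0.172 and 0.260), above the 0.560 of Axl with Mertk. Over the same 4 differences Pros1 had r = 0.990 with Gas6, 0.969 with Stab1 and 0.914 with Mertk (exact permutation adjusted p = 0.259 for each). They have the same limit, and whether Pros1 varies apart from the 5 genes is not settled either.

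**Figure D3:**
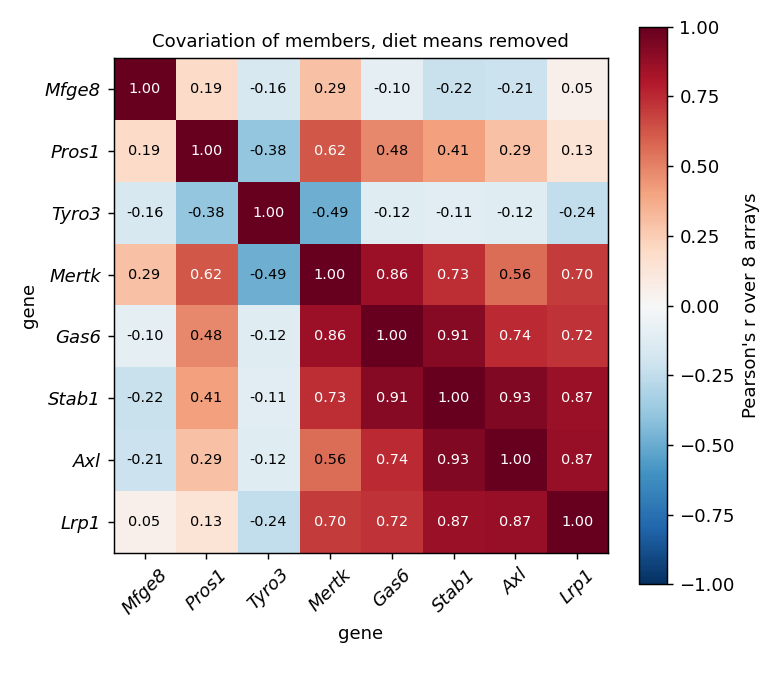
Pearson's r between the main probe sets of the 8 members over 8 arrays after each diet mean was removed (colour scale from -1 to 1). Mertk, Gas6, Stab1, Axl and Lrp1 have r from 0.56 to 0.93 with each other, and the Mfge8 row stays between -0.22 and 0.29 for these deposited values.

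Markers of other cells moved with the same arrays. For each list of markers a score was taken, the mean over its genes of the deviation in within-diet SD, and 8 such scores and the 3' minus 5' difference of the Gapdh control probe sets were set against the 8 members in 72 correlations with diet means removed. None passed the adjustment for either coefficient (exact permutation), while 11 had an unadjusted p under 0.05 for Pearson's r and 9 for Spearman's rho. Stab1 followed the 10 macrophage markers (among them Adgre1, Csf1r, Mrc1 and Cd163) with r = 0.939 and rho = 0.881 (exact permutation p = 0.00174, the smallest possible, and 0.00521; adjusted p = 0.125 and 0.0938), and r was 0.955 without the 2 farthest arrays. Axl had r = 0.901 with the same markers, Lrp1 0.861 and Gas6 0.83, with exact permutation adjusted p of 0.188, 0.250 and 0.250. The macrophage score ran from -0.386 to 0.794 in the control group and from -1.18 to 1.24 in the collagen group, with collagen 4 the highest and collagen 2 the lowest array. Stab1 also had r = 0.827 with the 5 endothelial markers and 0.779 with the 6 fibroblast markers, and Mertk and Lrp1 had 0.788 and 0.769 with the latter (adjusted p = 0.188, 0.250, 0.288 and 0.250, exact permutation). Other lists gave values as large. Pros1 had r = -0.828 and rho = -0.929 with the 5 melanocyte markers (exact permutation adjusted p = 0.188 and 0.0938), and r = -0.812 without the 2 farthest arrays. Tyro3 had r = 0.811 with the 7 keratinocyte markers (exact permutation adjusted p = 0.250), and 0.460 without the 2 farthest arrays. The part of macrophage, vessel, fibroblast or other cell content in the covariation of the members was not tested.

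Mfge8 and the macrophage markers had r = -0.161 and rho = -0.286 with diet means removed (exact permutation p = 0.705 and 0.540). Its largest correlation was with the 8 skeletal muscle markers (r = -0.857, rho = -0.810, exact permutation p = 0.0191 and 0.0312; adjusted p = 0.250 and 0.313; r = -0.645 without the 2 farthest arrays). The muscle score ran from -0.838 to 1.42 in the control group and from -1.68 to 0.187 in the collagen group. All 8 muscle markers had a lower mean in the collagen group, against 47.1% of all genes. This was not particular to muscle. The lower count was 6 of 6 for fibroblast, 5 of 5 for endothelial and 8 of 10 for macrophage markers. It was 1 of 7 for keratinocyte and 0 of 5 for melanocyte markers. For muscle it was 5 of 8 after quantile normalization and 7 of 8 after median centring. Within a diet Mfge8 was lower where muscle markers were higher, while between the diets both were lower with collagen. Mfge8 and the Gapdh 3' minus 5' difference had r = 0.780 and rho = 0.667 with diet means removed. Exact permutation gave p = 0.0781 and 0.0868 (adjusted p = 0.319 and 0.481), and r was 0.381 without the 2 farthest arrays. With the Gapdh difference as a covariate the Mfge8 diet difference was -8.86 residual SD. The part of muscle content and RNA quality in the Mfge8 difference was not tested further.

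**Figure D4:**
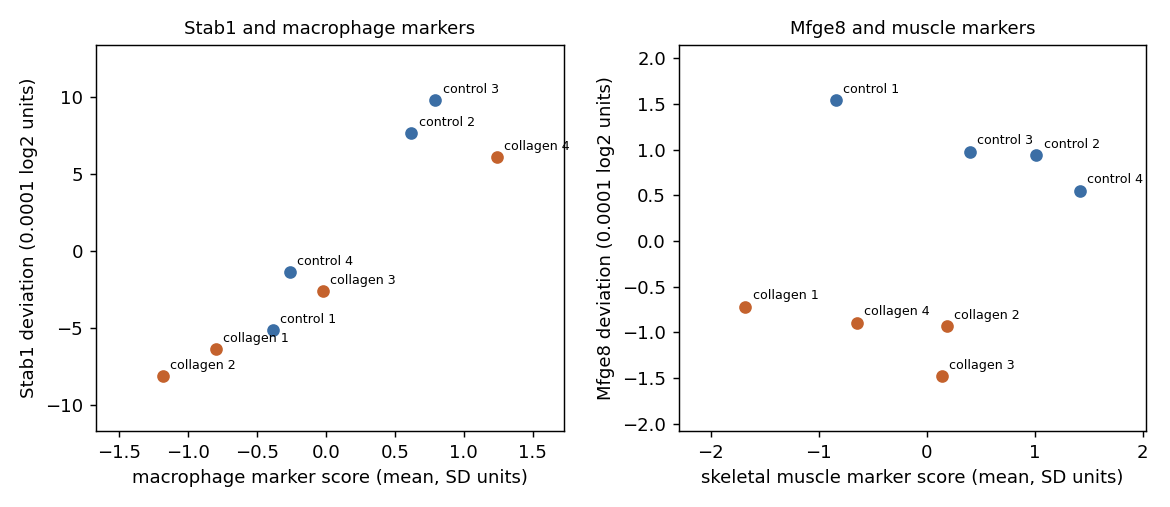
Left, Stab1 deviation (0.0001 log2 units) against the macrophage marker score (mean deviation in within-diet SD) in each of 8 arrays; right, Mfge8 deviation against the skeletal muscle marker score. Stab1 rises with the macrophage score in arrays of both diets, while Mfge8 falls with the muscle score within each diet and its control arrays all lie above its collagen arrays.

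Genes with the pattern most like Mfge8 within diets were sought among 8165 genes of at least median brightness and spread. The 5 with the highest r over the 8 arrays were Luzp1 (0.976), Xpo7 (0.941), Fam168a (0.932), Ptdss1 (0.927) and Slc6a2 (0.913). Ptdss1 makes phosphatidylserine, Xpo7 is a nuclear transport factor and Slc6a2 the noradrenaline transporter. The 5 with the lowest r were Tmem237 (-0.971), Thap3 (-0.946), Nudt13 (-0.922), Hoxd8 (-0.916) and Lipt2 (-0.915). None of these 10 shared the diet difference of Mfge8: theirs lay between -0.988 (Nudt13) and 1.47 (Slc6a2) within-diet SD. They are the extremes of many genes over few arrays and carry no test.

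Probe sets of 1 gene agreed in part. Gas6, Axl, Tyro3 and Lrp1 each had 2 probe sets, and their differences had the same direction for Axl and Lrp1 and opposite directions for Gas6 and Tyro3. The 2 Tyro3 probe sets rose and fell together over the arrays with diet means removed (r = 0.913), although the brighter one had a range 22.2 times that of the other. The Lrp1 probe sets had r = 0.691, those of Axl 0.250 and those of Gas6 -0.0409. The second Axl probe set, at 7.18, was the only one of the 12 below the median brightness. The second Gas6 probe set lay at 8.194, close to that median, and its highest array was collagen 1 rather than control 2. Mfge8, Pros1, Mertk and Stab1 had 1 probe set each, so their values have no second reading.

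Ranges between arrays were unequal from member to member. Gas6 had a range of 0.00243 over the 8 arrays and Stab1 one of 0.00179, at the 98.3rd and 97.9th percentile of all probe sets. Lrp1 (4.72e-04), Mfge8 (3.02e-04), Mertk (2.49e-04) and Axl (1.46e-04) came next, and Pros1 (4.81e-05) and Tyro3 (4.69e-05) last. These are ranges on the deposited log2 scale and do not compare amounts of RNA. Whether they show the spread in the skin is unknown.

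The promoters of Mfge8 and of the 4 genes that made up the 4 highest correlations on the deposited scale are shown so that the starts of the genes compared above can be set side by side, a choice made after the values were seen. Each line gives the 100 bases before the RefSeq start on GRCm38.p6, on the gene's own strand, with the GC box GGGCGG in capitals on either strand. The windows are chr7:79149061-79149160 (minus strand) for Mfge8, chr8:13494536-13494635 (minus) for Gas6, chr7:25788734-25788833 (minus) for Axl, chr10:127621149-127621248 (minus) for Lrp1 and chr14:31168642-31168741 (minus) for Stab1.
Mfge8: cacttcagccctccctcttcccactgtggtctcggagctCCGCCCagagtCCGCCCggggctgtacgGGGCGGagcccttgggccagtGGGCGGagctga
Gas6: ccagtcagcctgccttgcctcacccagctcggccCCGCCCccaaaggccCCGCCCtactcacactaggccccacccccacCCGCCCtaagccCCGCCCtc
Axl: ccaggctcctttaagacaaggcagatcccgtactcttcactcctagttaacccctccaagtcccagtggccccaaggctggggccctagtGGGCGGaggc
Lrp1: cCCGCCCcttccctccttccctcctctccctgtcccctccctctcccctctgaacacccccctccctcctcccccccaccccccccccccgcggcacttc
Stab1: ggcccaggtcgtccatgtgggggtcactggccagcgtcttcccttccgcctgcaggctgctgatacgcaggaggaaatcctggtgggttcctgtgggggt
Mfge8 and Gas6 each held 4 GC boxes in these bases, Axl and Lrp1 held 1 and Stab1 held none.

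All 8 members matched a RefSeq promoter, and the 250 bases before each start were searched on both strands. The GC box, bound by Sp1-type factors, was found in 7 of 8 members (all but Stab1), against 42.6% of 21263 promoters of protein-coding genes. The members' windows held 54.8% to 73.2% G and C, against a median of 55.6% for those promoters. No member held the TATA box TATAAA (11.6% of those promoters), the E box CACGTG (6.63%) or the AP-1 element TGANTCA (6.13%), and CCAAT was found in Stab1 alone (35.4%). None of the motifs searched was shared by Gas6, Axl, Lrp1 and Stab1. These matches describe letters in a window and not binding.

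The wider clearance pathway showed no call. Of 73 other genes in 6 lists, 69 were measured, and 42 (against 47.1% of all genes) had a lower and 27 a higher mean in the collagen group, with a median of -0.164 within-diet SD against 0.0517 over all genes. None passed limma's moderated test after adjustment over all probe sets, and 4 of 69 had an unadjusted p under 0.05, against 3.55% of all probe sets. These were Tub, a bridging molecule (-2.65 within-diet SD), Megf10, an engulfment receptor (-1.78), Rab7 (-1.72) and Panx1 (2.18), of which Tub and Megf10 were named after their values were seen. Quantile normalization turned the direction of all 4, and median centring turned that of Tub, Megf10 and Rab7. The lower count was 21 of 69 after quantile normalization and 5 of 69 after median centring, which moved the median over all probe sets from 0.0579 to 0.494 within-diet SD. In the single lists the lower count was then 3 to 6 and 0 to 3, so the list counts below hold for the values as deposited.

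Among bridging molecules and opsonins, 7 of 13 genes were lower. C1qb and C1qc, chains of the complement protein that tags dying cells, differed by -9.39e-04 ± 9.22e-04 and -0.00101 ± 8.75e-04, within their spread (unadjusted p = 0.345 and 0.290 by limma's moderated test). Of other engulfment receptors 9 of 15 were lower, with Cd93 at -4.02e-05 ± 1.91e-05 and Timd4, a phosphatidylserine receptor of resident macrophages, at -4.64e-04 ± 4.09e-04 (unadjusted p = 0.0770 and 0.297). The integrin chains to which Mfge8 binds, named after their values were seen, differed by 0.185 (Itgav), -0.199 (Itgb3) and -0.764 (Itgb5) within-diet SD. The direction of Itgb5 and Itgb3 turned after quantile normalization and after median centring.

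Engulfment signalling genes were lower in 7 of 9, with Rac1, the GTPase that drives the phagocytic cup, at -1.44 and its upstream adaptor Crk at 1.41 within-diet SD (unadjusted p = 0.0755 and 0.0810 by limma's moderated test). Genes of phosphatidylserine exposure were lower in 5 of 8, with the flippase subunit Tmem30a at 1.32 and the scramblase family member Plscr3 at -0.555 within-diet SD. Of find-me and do-not-eat-me signals 7 of 10 were lower, with S1pr1, a receptor for sphingosine 1-phosphate, at -1.05 and Panx1, the channel that releases nucleotides from dying cells, at 2.18 within-diet SD (unadjusted p = 0.169 and 0.0186). Genes of digestion and lipid export divided evenly, 7 of 14 lower, with the late endosome GTPase Rab7 at -1.72 and the autophagy gene Becn1 at 1.15 within-diet SD (unadjusted p = 0.0491 and 0.140). Of the 69 genes, Tub was the 1 whose diets did not overlap, against 2.02% of all genes.

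**Figure D5:**
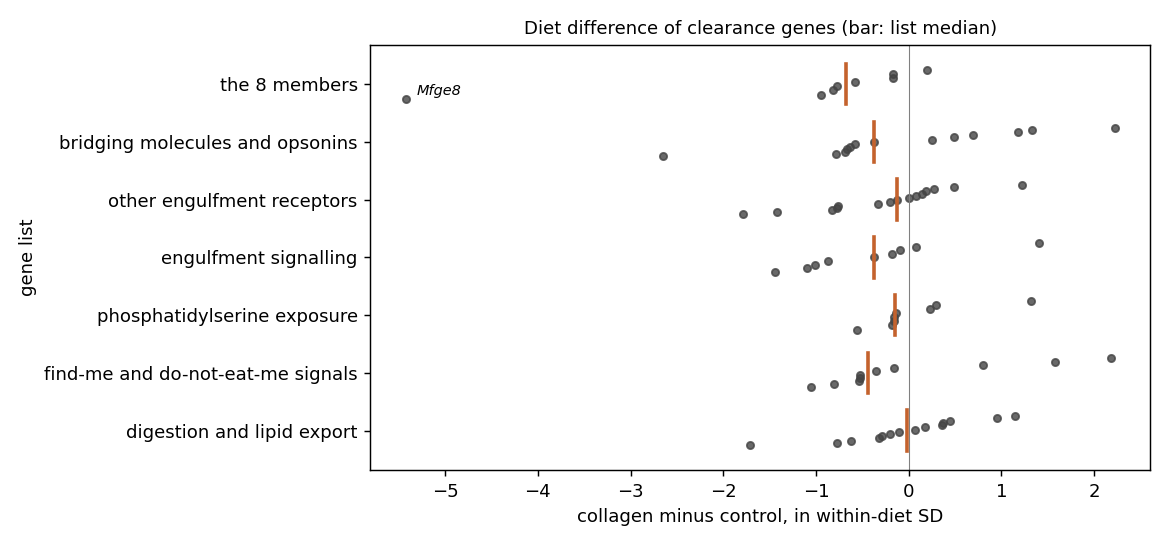
Difference of each measured gene (collagen minus control, in within-diet SD, values as deposited) for the 8 members and the 6 other clearance lists, with 1 point per gene and the list median as an orange bar. Mfge8 lies at -5.42, and all 69 genes of the other lists lie between -2.65 and 2.22.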

How the data were processed

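Biotin-labelled RNA of dorsal skin was hybridised to 1-colour arrays, per the labels' protocols. The authors deposited log2 values of all arrays in 1 table. R 2.7.2 is named in the submitters' processing notes, with the summary method, normalization and genome build not given in the sources used here. That the deposited values are log2 follows from their span, 6.56 to 14.46.

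The 64 control probe sets were left out. The platform annotation gave 1 symbol for 34945 of 45037 probe sets, several for 932 and none for 9160. The fit used limma 3.58.1 under R 4.3.3 on all probe sets (collagen minus control, two-sided, no covariate, Benjamini-Hochberg, threshold 0.05). Values were multiplied by 1e+06 before fitting, which changes no statistic. In simulated data with 200 probe sets changed, 81.4% of shifts of 8 SD were recovered, 11.8% of 4 SD and 0.597% of 2 SD. Correlations used exact permutation within diets, and p-values measure the spread between these arrays. The number of arrays limits the precision.

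The members and lists were chosen with earlier results of these data known. The text names all members, per pathway list the 2 genes of at least median brightness with the smallest p, and the 5 genes most and least like Mfge8. Promoters came from RefSeq (GRCm38.p6). Scaling, left-out arrays, filters, priors, array weights, the replicate number, ranks and a Gapdh covariate were tried as alternatives.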

Additional observations from a re-analysis of the deposited data

Results flagged for a closer look

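Of 24 groups of 4 arrays (12 probe sets in 2 diets), 1 held an array far from the others, where chance flags about 5%. Control 2 of the second Axl probe set, the dim one at 7.18, lay 0.893 of the group's range away from the nearest control array, above Dixon's critical value for 4 samples. It was 0.0767 above the 8-array mean in units of 0.0001 log2, with the other control arrays at or below that mean. In the main Axl probe set control 2 was not the highest control array.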

How the results depend on the processing

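The count of probe sets past adjusted p 0.05 by limma was 0 in all alternatives except quantile normalization (2) and ranks (2). The number of members with a lower mean in the collagen group was 7 of 8, 4 after quantile normalization, median centring and ranks, and 6 to 8 with 1 array left out. Mfge8 turned to 1.10 within-diet SD after quantile normalization and 1.11 with ranks, on a rank that moved by 2 places. With 1 array left out it lay between -6.52 and -4.97. Lrp1 turned to 2.12 with quantile normalization and with ranks, on a rank that moved by only 1 place. Pros1, with a move of 1 place too, also had 2.12 there. These values come from single rank steps and do not give the size of a change. Median centring turned Axl to 0.129, Mertk to 0.259 and Tyro3 to 0.443, with a shift of collagen 1 that most probe sets did not show. The Gapdh covariate turned Pros1 to -0.135 and Tyro3 to 0.0937, and array weights turned Pros1 to -0.00725. With 1 array left out Pros1 ran from -0.120 to 1.39, Mertk from -0.701 to 0.329 and Tyro3 from -0.729 to 0.279. Gas6 and Stab1 stayed lower in every alternative run. Pairs of members past adjusted p 0.05 numbered 0, and 5 with the diet means left in, where r also holds the diet difference. Pathway genes with a lower mean numbered 42, 21 after quantile normalization and 5 after median centring (chosen after seeing the data).

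Arrays of the same replicate number correlated at 0.361, 0.0581, 0.200 and 0.0343 over all probe sets. Control and collagen arrays of unlike number correlated at -0.267 to 0.155, so 0.361 and 0.200 lay above all of those. The numbers were not taken to pair the mice, and whether they do is not settled by these values. With the replicate block limma called 0 probe sets, Mfge8 lay at -6.35 residual SD, and the 24 orders of 4 differences give no unadjusted p under 0.0417, so that 0 pairs of members passed adjustment says nothing about stability (r = 0.990 for Gas6 with Pros1, 0.83 for Mfge8 with Axl). Signal over background is unknown.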
